A study of Mus musculus with 3 samples.

Results

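Voltage-gated ion channels, other channels of the same gene families and ion-pumping ATPases were described in the neural retina of wild-type mice at postnatal day 7 (P7). The members were all probe sets with a single annotated gene whose symbol begins with Kcn, Cacn, Scn, Hcn, Clcn, Clic, Atp1a or Atp1b, Atp2a to Atp2c, Fxyd, Itpr or Ryr. This gave 119 of the 12422 analysed probe sets, for 87 of 8251 genes. Of these genes 42 belonged to the potassium class, 21 to the calcium class, 14 to the sodium class with the sodium-potassium pumps, 8 to the chloride class and 2 to the mixed cation class (Hcn). The choice used gene names alone and no measured value, though it was made with earlier results of these data known.

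Total RNA was hybridised to MG-U74Av2 oligonucleotide arrays, a type read from the sample titles, on which each gene is covered by 1 or more probe sets. The 3 samples formed a single group. Each pooled the neural retinas of 3 to 4 animals, all wild-type littermates of Rp1-/- mice on a mixed 129/SvEv and C57BL/6 background, taken between 1 and 2 pm. They are called pools 1, 2 and 3, names without an order. No group was compared with another, so the data bear on which of these genes gave signal and on the spread between pools. Nothing says more about how the pools relate to each other, so the spread between them may be partly technical. In whole tissue, fewer cells of a type and less RNA per cell cannot be told apart.

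Voltage-gated channels open when the membrane potential changes, and most let mainly a single kind of ion pass, while sodium-potassium and calcium ATPases restore the gradients that the channels use up. In the retina, photoreceptors answer light with graded changes of potential. Potassium channels and Hcn channels shape these responses, voltage-gated calcium channels drive glutamate release at the photoreceptor and bipolar cell terminals, and sodium channels carry the spikes of ganglion cells. Channels of the Clcn family that lie in endosomes and lysosomes exchange chloride for protons.

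Background was taken from 62 measured genes that mark other organs, such as liver and testis. Genes whose scaled intensity, in array units, passed the 90th percentile of these in every pool were called above background. This bar was 276, 215 and 294 in pools 1, 2 and 3. A gene below it may still be expressed, and since probe sets differ in how they bind, no gene's level is compared with that of another. By this bar 6 of 7 measured rod markers, 5 of 6 amacrine and horizontal cell markers and 4 of 4 ganglion cell markers were above background. So were 3 of 3 cone, 3 of 5 Müller glia and 1 of 3 bipolar cell markers, with the Müller glia markers Vim and Aqp4 in no pool, against 1 of 8 muscle markers (Actc1). The lens markers stood apart, with a summed intensity of 21761 in pool 1 against 106065 and 111032 in pools 2 and 3. The 3' to 5' ratio of the Actb control probe sets was 1.81 in pool 1 and 1.27 and 1.30 in pools 2 and 3, while that of Gapdh was 0.874, 0.788 and 0.812. The summed intensity of 3 red blood cell markers was high in pool 2, at 6885 against 3042 and 2912 in pools 1 and 3. Hba-a1, a globin chain, made up 2914, 6705 and 2821 of it.

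Most of the channel and pump genes gave no signal above background. Of the 87 genes 23 (26.4%) were above the bar in all 3 pools, against 47.1% of all 8251 genes. Another 14 passed it in 1 or 2 pools and 50 in none. The shares were 9 of 42 (21.4%) in the potassium class, 6 of 21 (28.6%) in the calcium class, 3 of 14 (21.4%) in the sodium class, 3 of 8 (37.5%) in the chloride class and 2 of 2 in the mixed cation class. With the 75th percentile as the bar, 37 members (42.5%) and 62.5% of all genes passed. The share of members was also below that of all genes under each of the other alternatives tried.

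**Figure D1:**
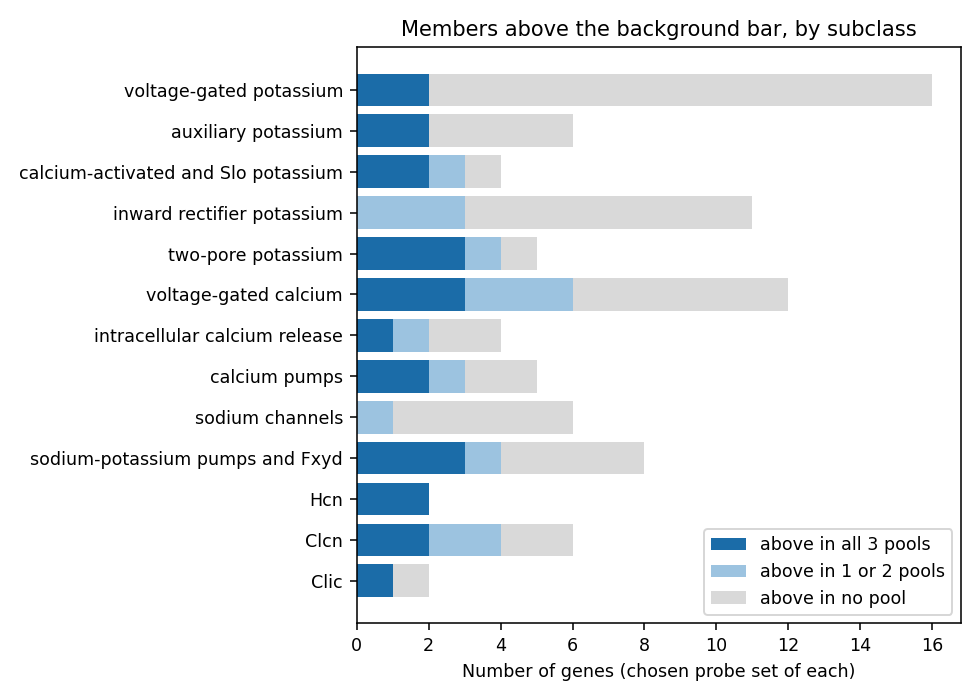
Number of member genes by subclass (horizontal axis) that were above the background bar in all 3 pools (dark blue), in 1 or 2 pools (light blue) or in none (grey), by the chosen probe set of each gene. Voltage-gated potassium channels had 2 of 16 genes above the bar in all pools, inward rectifiers 0 of 11 and sodium channels 0 of 6, whereas both Hcn genes passed.

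In the potassium class, 2 of 16 genes for pore-forming subunits of voltage-gated channels had signal in all pools. Kcna5, the delayed rectifier Kv1.5, had intensities of 691, 977 and 636 in pools 1, 2 and 3 (mean 768 ± 183; all errors are SD with n = 3 pools). Kcnh2, the ether-a-go-go-related channel Erg1, was at 565, 811 and 691 (689 ± 123). Pool 2 was the high one for both. This was not particular to them, since 2753 of all 3887 genes above background were also above their own log2 mean in pool 2. The scaling between arrays had itself moved pool 2 by 0.12 on the log2 scale. The median deviation of all genes above background in pool 2 was 0.12 with scaling and 0.00 without it. Pool 2 was also the pool with the high red blood cell marker sum, whose part in these values was not tested. By their chosen probe sets the other 14 genes passed the bar in no pool and had values between 8.39 and 206. They were the Shaker-type genes Kcna1, Kcna2, Kcna3, Kcna4, Kcna6 and Kcna7, the fast Kv3 channel gene Kcnc1, the A-type genes Kcnd1, Kcnd2 and Kcnd3, and Kcnh1, Kcnq1, Kcns1 and Kcns2. Kcna1 was at 20.4, 44.5 and 21.5 and Kcnc1 at 33.7, 111 and 46.2, all under the bar of their pool.

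Potassium channel genes outside the voltage-gated family were above background more widely in some groups than in others. Among the auxiliary subunits, which bind to pore-forming subunits, 2 of 6 passed. Kcnab2, a beta subunit of Shaker-type channels, was at 523, 315 and 501 (446 ± 114) by its chosen probe set, with pool 2 low. Its second probe set, of the type shared between related transcripts, was at 266, 324 and 369. That one was lowest in pool 1 and missed the bar there. Kcne1l, of the Kcne family, was at 714, 1077 and 1122 (971 ± 224), with pool 1 low. Kcnab1, Kcnab3, Kcne1 and Kcnmb1 passed in no pool. Kcnma1, the large-conductance channel opened by calcium and voltage, was at 770, 938 and 836 (848 ± 84.4). Kcnn1, a small-conductance channel opened by calcium, was at 594, 598 and 464 (552 ± 76.6). The related Kcnn4 lay at 295, 37.3 and 228 and passed in pool 1 alone, and Kcnu1, the pH-gated channel Slo3, passed in none.

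Two-pore channels, which carry the background potassium leak, had 3 of 5 genes above the bar. Kcnk1 was at 380, 525 and 431 (445 ± 73.4). Kcnk2, the mechanically gated channel TREK-1, was at 314, 338 and 385 (346 ± 35.9). Kcnk4, the related channel TRAAK, was at 279, 323 and 392 (331 ± 56.9), and its pool 1 value lay close to the bar of 276. All 3 genes were lowest in pool 1. Kcnk7, at 240, 212 and 439, passed in pool 3 alone, and Kcnk3 in none.

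The inward rectifiers, which hold the resting potential, had no gene above the bar in all 3 pools among 11 measured. Kcnj4 (226, 258 and 147), Kcnj9 (248, 281 and 161) and Kcnj11 (113, 249 and 223), the pore of the ATP-sensitive channel, passed in pool 2 alone. Pool 2 had the lowest bar. A second probe set of Kcnj9, at 186, 163 and 401, passed in pool 3 alone. Kcnj1, Kcnj2, Kcnj3, Kcnj5, Kcnj6, Kcnj8, Kcnj12 and Kcnj15 passed in none, with values from 4.60 to 150. For 3 of these 8 every value lay below the floor of 42.2 that was set for the log2 scale. Kcnj10, the main inward rectifier of Müller glia, was not analysed here.

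**Figure D2:**
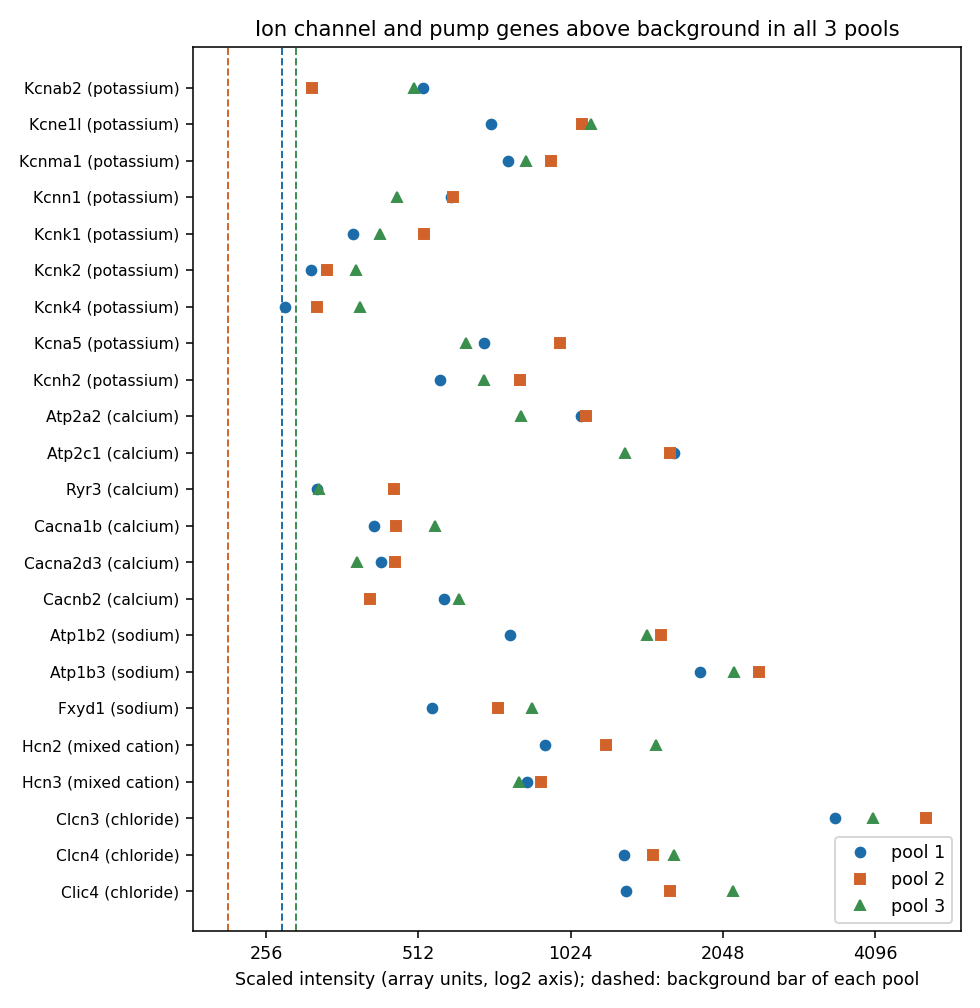
Scaled intensity of each of the 23 genes above background in all 3 pools (log2 axis, array units), with 1 marker for each pool and the background bar of each pool as a dashed line. The pools lay within 2-fold for every gene shown, and pool 1 (circles) was the lowest for 15 of them.

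Voltage-gated calcium channel genes were above background for 3 of 12 members, namely a pore, an alpha2delta and a beta subunit. Cacna1b, the N-type pore found at presynaptic terminals, was at 417, 462 and 553 (478 ± 69.3). Cacna2d3, an alpha2delta subunit that helps to bring pores to the membrane, was at 431, 461 and 387 (427 ± 37.4), and its pools differed little. Cacnb2, the beta subunit that photoreceptor calcium channels need, was at 574, 410 and 615 (533 ± 109), with pool 2 low. The L-type gene Cacna1c (435, 271 and 235) and the T-type gene Cacna1g (320, 256 and 221) passed in pools 1 and 2 and not in pool 3. Cacng2, which encodes stargazin, a partner of AMPA receptors, was at 251, 355 and 381 and missed the bar in pool 1. Cacna1a, Cacna1e, Cacna1h, Cacna1s, Cacna2d1 and Cacng1 passed in no pool, with values from 13.7 to 199. Among these Cacna2d1, another alpha2delta subunit, was at 164, 173 and 133.

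Genes that release calcium from stores or pump it back were above background for 3 of 9 members. Ryr3, a ryanodine receptor, was at 322, 458 and 326 (369 ± 77.6) by its chosen probe set, and its family member Ryr2 at 278, 376 and 275 missed the bar in pool 3. Ryr1 and, by its chosen probe set, the inositol trisphosphate receptor gene Itpr2 passed in no pool. Another probe set of Itpr2, at 112, 241 and 167, passed in pool 2 alone. Atp2a2, the calcium pump SERCA2 of the endoplasmic reticulum, was at 1076, 1096 and 817 (996 ± 156). Its only probe set was of the type shared between related transcripts. Atp2c1, the calcium and manganese pump of the Golgi, was at 1636, 1608 and 1309 (1518 ± 181). Pool 3 was the low one for both pumps. Atp2a3 (121, 244 and 293) passed in pool 2 alone, and the plasma membrane pump gene Atp2b2 (120, 195 and 145) in none.

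5 members known mainly from skeletal muscle, picked by hand after their values were seen, passed in no pool. They are no complete set of muscle genes, since Atp2a2 and Fxyd1, which muscle also uses, were above background. Cacna1s and Cacng1, subunits of the muscle calcium channel, were at 66.0, 17.8 and 29.7 and at 147, 110 and 36.4. The muscle chloride channel gene Clcn1 lay between 47.0 and 52.0 in the 3 pools and the release channel gene Ryr1 was at 89.2, 62.6 and 114. Atp2a1, the pump SERCA1 of fast muscle, was at 86.2, 130 and 293, so that its pool 3 value came close to the bar of 294 without passing it. The summed intensity of the 8 muscle markers was 1308, 1489 and 1144 in pools 1, 2 and 3, of which Actc1 made up 539, 1051 and 713. The probe set used for Actc1 was of the type shared between related transcripts. The other 7 markers passed in no pool. Among them Myl1 (154, 63.0 and 26.5), Mb (110, 13.6 and 10.9) and Tnnt3 (89.7, 23.0 and 17.2) were highest in pool 1. Acta1 was highest in pool 2 (129, 158 and 85.3) and Tnnc2 in pool 3 (26.9, 14.3 and 33.9). Ckm (237, 161 and 237) and Myh3 (22.4, 4.25 and 20.1) lay close in pools 1 and 3. All of these values lay below the bar and are not measured levels.

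None of 6 sodium channel genes was above background in all 3 pools by its chosen probe set. Scn8a, the channel Nav1.6 of axon initial segments, came nearest at 378, 242 and 218 (279 ± 86.8) and passed in pools 1 and 2. The other Scn8a probe set, at 5.20, 4.25 and 4.12 in pools 1, 2 and 3, passed in no pool. Scn1a, Scn3a, Scn7a, Scn9a and Scn10a passed in no pool. Their values ran from 6.32 to 137. A second probe set of Scn1a, of the type shared between related transcripts, was above the bar in every pool at 358, 351 and 322.

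The sodium-potassium pump was seen through its beta subunits, which bring the catalytic alpha subunit to the membrane. The alpha subunit genes were not analysed here. Atp1b3 was at 1843, 2415 and 2150 (2136 ± 286). Atp1b2, which in the retina also anchors retinoschisin, was at 775, 1542 and 1451 (1256 ± 419), with pool 1 low and pools 2 and 3 close together. The mean of pools 2 and 3 was 1.93-fold that of pool 1. Fxyd1, phospholemman, a small regulator of the pump, was at 545, 735 and 860 (713 ± 158), again with pool 1 low. Atp1b1 by its chosen probe set was at 77.3, 158 and 144 and passed in no pool. Fxyd7 (278, 168 and 94.4) passed in pool 1 alone and Fxyd2, Fxyd3 and Fxyd5 in none.

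Both measured Hcn genes, for the channels that open on hyperpolarisation and carry sodium and potassium, were above background. Hcn2 was at 910, 1201 and 1510 (1207 ± 300), with pool 1 low. Hcn3 was at 837, 896 and 810 (848 ± 44.1), and its pools lay close together. The Hcn2 value came from a probe set made under relaxed selection rules. Its other probe set was at 103, 86.2 and 35.2 and passed in no pool.

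In the chloride class, 3 genes were above background in all pools, each known for an intracellular role. Clcn3, an endosomal chloride-proton exchanger, was at 3417, 5163 and 4047 (4209 ± 884), and Clcn4, another of this kind, at 1302, 1491 and 1641 (1478 ± 170). Clic4, a chloride intracellular channel protein, was at 1317, 1608 and 2144 (1690 ± 419). Pool 1 was the low one for all 3. Clcn5, the endosomal exchanger mutated in Dent disease, was at 268, 382 and 459 and missed the bar of 276 in pool 1. Clcn7, of lysosomes, was at 341, 137 and 207 by its chosen probe set and passed in pool 1 alone. Clcn2, a plasma membrane channel whose loss leads to photoreceptor degeneration, was at 164, 53.0 and 30.4. Clcn2 and Clcn1, the 2 plasma membrane channels measured, passed in no pool, and neither did Clic3. Clic1 shared its probe set with Septin9 and was left out.

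Several members had more than 1 probe set, and these did not always give the same answer. Of 26 such genes 16 did: all probe sets of Clcn3, Clcn4 and Clic4 were above the bar in every pool, and those of 13 genes were not. For Clcn3 the 3 others read 1018, 885 and 1044, then 1405, 1363 and 1107, and lastly 933, 908 and 892. The chosen probe set of Clcn3 was lowest in pool 1, whereas none of these 3 was. The others of Clic4 read 1477, 1364 and 1262 and 1055, 904 and 1271, so that the low pool 1 value of the chosen probe set did not recur. The second probe set of Clcn4 was at 1354, 1279 and 936, low in pool 3.

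In the 10 genes whose probe sets disagreed, 4 had a chosen probe set below the bar and another above it. These were Atp1b1, Clcn7, Kcnq1 and Scn1a, and in each case the second probe set was of a type shared between related transcripts or made under relaxed rules. For Atp1b1 it was at 414, 377 and 485. For Clcn7 it was at 898, 1246 and 866, and for Kcnq1 at 471, 463 and 611. With these 4 added, 27 of the 87 genes had a probe set above background in all pools. The second probe sets of Ryr3 (199, 139 and 100) and Atp2c1 (32.9, 19.8 and 31.0) passed in no pool. For Atp1b2 the second probe set, at 154, 38.0 and 38.8, ran the other way from the chosen one, with pool 1 high, but all of its values lay below the bar and are not measured levels.

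**Figure D3:**
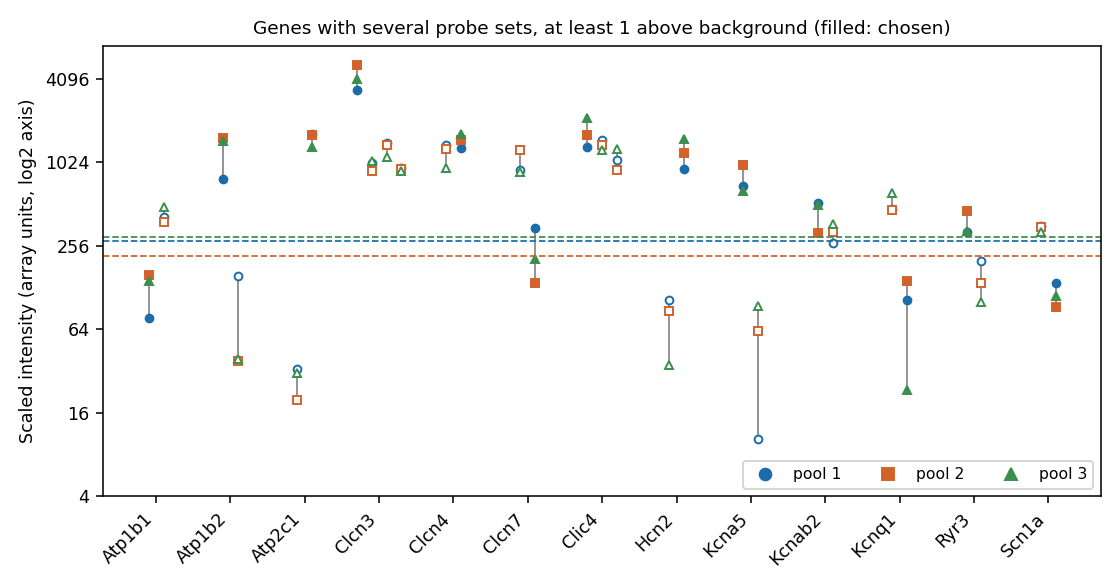
Scaled intensity (log2 axis, array units) of every probe set of the 13 genes with several probe sets of which at least 1 was above background, with pools as markers, the chosen probe set filled and the others open. Dashed lines are the background bars. The probe sets of Clcn3, Clcn4 and Clic4 all lie above the bars, whereas each of the other 10 genes has at least 1 probe set that was above the bar in every pool and 1 that was not.

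The pools were close for the genes with signal. In all 23 genes the highest and lowest pool lay within 2-fold, as they did for 96.2% of all genes above background. A gene low enough in 1 pool to miss the bar there was left out, so the choice of genes itself favours close pools. The range ran from 1.11-fold (Hcn3) to 1.99-fold (Atp1b2). The median SD was 0.25 on the log2 scale, against 0.23 for all genes above background. Spread beyond that of other probe sets of like brightness was tested with limma over the 6211 brighter probe sets, of which 1.34% were called at an adjusted p below 0.05. Among the 43 member probe sets tested none was called. The smallest limma adjusted p was 0.571, for Atp1b2, which with an unadjusted p of 0.0249 was also the only one of the 43 with an unadjusted p below 0.05. Over all probe sets tested 6.76% had an unadjusted p below 0.05. A call of 0 was also found under each of the 10 alternatives, in which the count of members at an unadjusted p below 0.05 was 1 or 2, or 21 of 119 when dim probe sets were kept. Over all probe sets, 6 of 6211 were called without scaling, 6 after quantile normalisation and 9 without pool 2. With dim probe sets kept, 0 of 12422 were called. In these cases a call of 0 among the members was nearly or wholly given and says little about them. The other alternatives called 23 to 83 probe sets. Atp1b2, with a range of 1.99-fold, was not called, which does not show that its pools were alike.

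Pool 1 was the lowest pool for 15 of the 23 genes (65.2%), against 37.0% of all genes above background. The remaining genes were lowest in pool 2 (Kcnab2 and Cacnb2) or in pool 3 (6 genes), all by the chosen probe sets. The count was chosen after the values were seen and was not tested. It was 13 (56.5%, against 31.1% of all genes) without scaling between arrays and 14 (60.9%, against 33.5%) after quantile normalisation. Pool 1 was also the pool with the low lens marker sum and the high Actb ratio given above, while its Gapdh ratio stood less far apart, and the part of these in the result was not tested.

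The classes were set side by side by the median log2 deviation of their genes above background from each gene's own mean. Over all genes above background this median was -0.04, 0.12 and -0.08 in pools 1, 2 and 3. The potassium class had -0.13, 0.15 and 0.02, with 6 of 9 genes lowest in pool 1. The calcium class had 0.07, 0.10 and -0.15, with 3 of 6 genes lowest in pool 3 and 2 in pool 1. The sodium class, whose 3 genes were Atp1b2, Atp1b3 and Fxyd1, had -0.36, 0.19 and 0.27. The chloride class had -0.28, 0.02 and 0.16, and the mixed cation class -0.20, 0.05 and 0.14. All 3 genes of the sodium class and all 3 of the chloride class were lowest in pool 1 by their chosen probe sets. Without scaling and after quantile normalisation, the pool 1 deviation of the sodium class was -0.30 and -0.36 and that of the chloride class -0.22 and -0.15. Without pool 2 and without pool 3, the sodium class value was -0.33 and -0.21 and the chloride class value -0.17 and -0.14. The pool 2 deviations of the calcium, chloride and mixed cation classes turned sign without scaling, to -0.02, -0.10 and -0.07, and were also negative after quantile normalisation. The pool 1 value of the calcium class was -0.01 without pool 3, and its pool 3 value was -0.04 without pool 2. Without pool 1, the pool 3 values of the sodium and potassium classes turned to -0.04 and -0.08, and the pool 2 values of the chloride and mixed cation classes to -0.10 and -0.05. With 1 pool left out, the 2 remaining deviations of a gene are equal and opposite. Where both class medians had been above 0, as here and for calcium without pool 3, 1 of them had to turn. That these turned therefore says nothing about how steady the values were. The chloride value in pool 1 was -0.05 when all probe sets of a gene were averaged, in which case 4 genes of the class were above background. With all members taken, with or without signal, the sodium class value was -0.04 in pool 1 and -0.01 in pool 3. The chloride class value in pool 1 was then -0.05. With 2 to 9 genes a class these medians are descriptions, and the differences between classes were not tested.

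**Figure D4:**
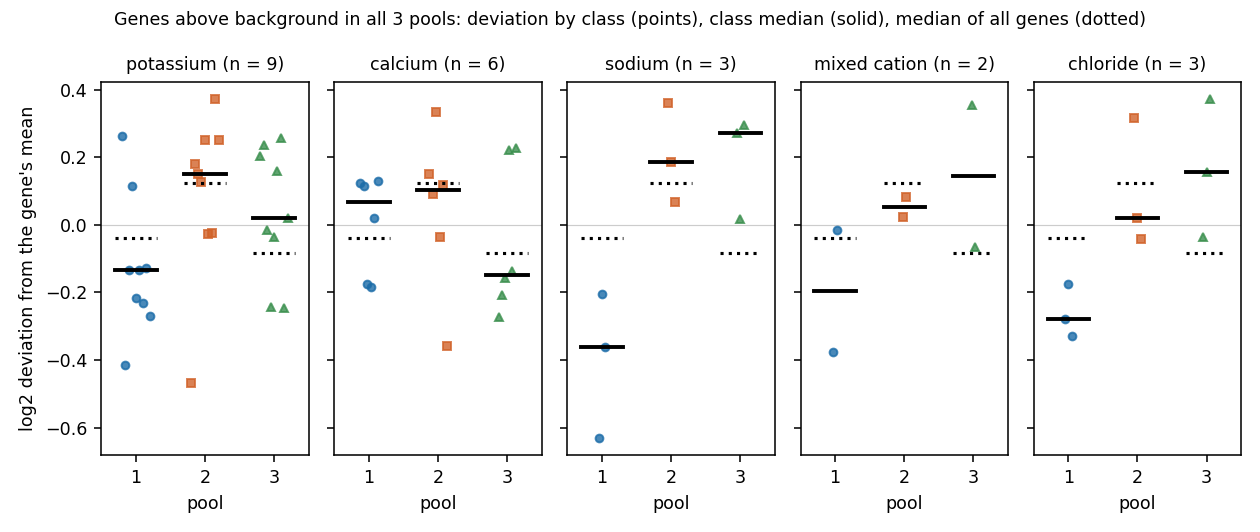
Log2 deviation of each gene above background from its own mean over the pools (vertical axis), by pool and class, with the class median as a solid line and the median of all genes above background as a dotted line. In pool 1 the 3 sodium class and the 3 chloride class genes lie below 0, while 4 of the 6 calcium class genes lie above 0.

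A list of other ion transport genes was set beside the members, holding exchangers, scaffolds, channel partners, regulatory kinases and channels of other families such as Cnga1, Trpm1 and Asic2. Of its 71 genes 41 were measured, and 23 (56.1%) were above the bar in all pools, against 47.1% of all genes. Slc12a2, the importer of chloride that keeps it high in immature neurons, was at 1251, 933 and 956 (1047 ± 177). Slc12a5, the neuronal chloride exporter, was at 233, 400 and 354 (329 ± 85.9) and missed the bar in pool 1. The sodium-calcium exchanger gene Slc8a1 was at 778, 896 and 623 (765 ± 137). Ank3, the ankyrin that gathers sodium channels at the axon initial segment, was at 1062, 1709 and 916 (1229 ± 422). Dlg4, the scaffold PSD-95, was at 61.7, 405 and 378 and below the bar in pool 1. Aqp4, the water channel of Müller glia, was at 39.0, 41.2 and 43.8.

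In that list 1 of the 27 genes tested had excess spread, against 1.06% of the 4698 genes tested in all. Sri, which encodes the calcium-binding protein sorcin, a regulator of ryanodine receptors, was at 474, 637 and 143 (limma adjusted p = 0.0034). Pool 3 was the low one, and its value lay below the bar there. The call was lost without pool 2 (limma adjusted p = 0.867), without pool 3 (0.996), with dim probe sets kept (1.00), with arrays left unscaled (0.469) or quantile normalised (0.296), and when the prior was not made robust (0.0788). It stayed without pool 1 (0.00794).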

How the data were processed

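The values deposited by the authors were processed intensity per probe set, linear, from 0.1 to 55245.8. The software behind them is not given in the sources used here. From the values, each array had been scaled to a mean near 500.2 without the lowest and highest 2%. Detection calls were not used. Precision is limited by the 3 arrays.

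Of 12488 probe sets 66 controls were left out. The platform annotation gave 1 gene for 10833, several for 396 and none for 1193, and symbols were updated by gene ID with RefSeq names (GRCm38.p6), which matched all 119 members. Each gene was read by 1 probe set: without a letter suffix first, then by highest mean. Arrays were scaled to their common median (factors 0.962, 1.09 and 0.959, so that pool 2 moved by 0.12 on the log2 scale), floored at the 20th percentile (42.2) and put on the log2 scale. For spread, the variance over the pools, with 2 residual degrees of freedom, was compared with the prior from limma 3.58.1 (squeezeVar, robust, mean as covariate) across the 50% of probe sets with the highest mean, with Benjamini-Hochberg adjustment. This was tested on simulated data. Alternatives changed the scaling, floor, filter, bar, probe set rule and pools.

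Named were, per subclass, up to 5 genes above background, genes of known retinal function and called genes. The remaining members were named for completeness. Members and lists were chosen with earlier results of these data known.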

Additional observations from a re-analysis of the deposited data

How the results depend on the processing

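With the 75th percentile as the bar, 37 members were above background in place of 23, with 14 of the potassium, 12 of the calcium and 5 of the chloride class in place of 9, 6 and 3. Without the shared probe set types the mixed cation class had 1 gene, since both probe sets of Hcn2 are of such types. The calcium class then had 5 in place of 6, with the only probe set of Atp2a2 left out, and the chloride class 4 in place of 3. The other alternatives gave 19 to 27 members. Leaving out each pool in turn gave 23 to 27 members, with 9 of the potassium, 6 to 9 of the calcium, 3 to 4 of the sodium, 3 to 4 of the chloride and 2 of the mixed cation class, and no member with excess spread.

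Of 105 deviations recomputed for the 5 classes, 103 moved by less than the SD over the pools, but 15 turned sign: 1 in pool 1 (calcium), 8 in pool 2 (calcium, chloride and mixed cation) and 6 in pool 3 (potassium, sodium and chloride). The turns that came with a pool left out had to occur, since the 2 remaining deviations of a gene are equal and opposite. In pool 1 the median over members was 0.00 when all 87 were taken, with or without signal, against -0.18. For the chloride class in pool 1 it was -0.054 with all members taken and -0.0514 with the mean of all probe sets, against -0.28. For the sodium class in pool 1 it was -0.0423 with all members taken, against -0.36, a move smaller than the SD over the pools. For all genes in pool 2 it was 0.01 under quantile normalisation and 0.00 with unscaled arrays, against 0.12. The scaling between arrays alone moved pool 2 by 0.12 on the log2 scale. The cause of the other moves was not tested. No member was called for excess spread under any alternative, though some of these called few probe sets or none at all. The count of genes lowest in pool 1, an alternative added after seeing the data, ran from 12 of 19 to 20 of 37 members above background, a share of 54.1% to 68.2% against 31.1% to 39.5% of all genes. Genes near the bar limit the counts above background, and signal below it has no order.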
